A study of Homo sapiens with 18 samples.

Results

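NODAL, its related ligand GDF3, the coreceptor TDGF1, the secreted inhibitors LEFTY1, LEFTY2 and CER1, and the transcription factor FOXH1 were followed in human embryonic stem cells treated with Wnt3a. These 7 genes were chosen by name as the ligands, coreceptor, inhibitors and nuclear partner of one signaling pathway. All 7 are listed among the 10975 genes with RNA-Seq values in the first WT series, and 5 of them (NODAL, GDF3, LEFTY1, LEFTY2 and CER1) are among the 497 genes with values in the SP5 mutant clones. TDGF1 and FOXH1 are not listed there and have no clone values. The 497 genes are ones that the study selected for their change in the first WT series, so a member's presence there is not independent of its response.

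NODAL is a secreted ligand of the TGF-β superfamily. It binds type I and type II activin receptors together with an EGF-CFC coreceptor such as TDGF1 (CRIPTO), and the receptors phosphorylate SMAD2 and SMAD3, which enter the nucleus with SMAD4 and act with FOXH1 on target genes. Genes for NODAL itself and for the LEFTY inhibitors are classical targets of the pathway, and in the early embryo and in pluripotent cells the balance of ligand and inhibitor is known for its part in keeping the undifferentiated state and in forming mesendoderm.

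H1, an established human embryonic stem cell line, was grown in E8 medium, which contains TGF-β1 and FGF2. Wild-type (WT) cells of the first series were sequenced at 0, 12, 24 and 48 h with 1 nM Wnt3a, and a second wild-type series (WT Rep. 2) and the mutant clones dZF1 and dZF2 were sequenced at the same times. Each clone is a single H1 clone in which CRISPR-Cas9 removed the sequence that encodes the zinc fingers of SP5, a DNA-binding protein of the SP/KLF family, from both alleles. The 0 h cells received the buffer in which Wnt3a is stored. SP5 ChIP-Seq peaks were deposited as 2 lists, with 542 peaks against a control from buffer-treated cells and 540 peaks against a control from Wnt3a-treated cells. The headers of both lists name the same SP5 ChIP library, with a name that gives H9, another embryonic stem cell line. The lists are therefore not replicates, and neither can be taken to show SP5 binding in untreated cells. By the sample labels, the list with the buffer-treated control is from 0 h and the other from 24 h with 1 nM Wnt3a. The paper describes SP5 ChIP in H1 cells with and without Wnt3a for 24 h. It reports significant SP5 binding in the treated cells and none in the untreated cells. The 0 h label and the paper's cell line thus differ from what the headers give, which was not resolved.

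There is 1 library for each series and time. No test across genes was run: the first WT series has no replicate in its table, the 2 tables were scaled separately, and the mutant table holds 1 WT series. A change is called when it is at least 2-fold, and an exact permutation of 2 clones against 2 WT series cannot go below a two-sided p of 0.33. Read numbers are not in the tables, so the depth behind each value is unknown.

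SP5 summits were looked for near each member, as the nearest measured binding of the factor that is mutated in the clones. Of the 7 members, NODAL alone had a summit within 50 kb of its start, against 5.23% of 19894 protein-coding genes by the same rule over both lists. The NODAL peak spans chr10:72199798-72200769 (GRCh37), lies wholly inside intron 1 of the canonical transcript (intron 1 spans chr10:72195740-72201230), and its summit is 1225 bases downstream of the start on the minus strand. It is listed against the buffer-treated control only, with 43 tags, a MACS score of 73.69 (higher for a smaller p-value), 7.94-fold enrichment over that control and a false discovery rate of 46.04%. In that list 25.5% of peaks have a higher score and 17.3% have more tags, and the median is 25 tags with a false discovery rate of 69.6%. At a false discovery rate of at most 5%, or with the list against the Wnt3a-treated control alone, 0 members have a summit within 50 kb. The paper names NODAL among the genes with an associated SP5 peak in its own peak list.

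The 300 bases around the NODAL summit are shown because they hold the closest SP5 signal to any member. They were read from GRCh37 at chr10:72200062-72200361 on the minus strand, with matches on either strand to the GC box GGGCGG, to GGGAGG, to CTTTGA (the TCF/LEF core), to TGTNNATT (the FOXH1 class) and to CAGAC (a SMAD box) in capitals.
NODAL intron 1 peak: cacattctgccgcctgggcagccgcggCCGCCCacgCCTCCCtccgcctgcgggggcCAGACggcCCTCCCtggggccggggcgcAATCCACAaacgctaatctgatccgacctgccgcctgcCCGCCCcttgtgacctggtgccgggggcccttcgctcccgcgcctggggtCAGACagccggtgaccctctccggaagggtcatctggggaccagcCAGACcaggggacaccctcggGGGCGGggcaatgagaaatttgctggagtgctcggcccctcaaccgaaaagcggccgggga
The stretch holds 3 matches to GGGCGG, 2 to GGGAGG, 3 to CAGAC, 1 to TGTNNATT and 0 to CTTTGA, and 71.3% of its bases are G or C. Windows of the same length around 539 summits of that list held GGGCGG in 40.6%, GGGAGG in 61.4%, CAGAC in 43%, TGTNNATT in 16.9% and CTTTGA in 19.3%. Within 100 bases of the NODAL summit there were 2 matches to GGGCGG, 1 to GGGAGG, 3 to CAGAC and 1 to TGTNNATT, where 35.3%, 49.5%, 28.8% and 11.1% of summits held the respective letters. These are matches of letters only and do not show binding of any factor.

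**Figure D1:**
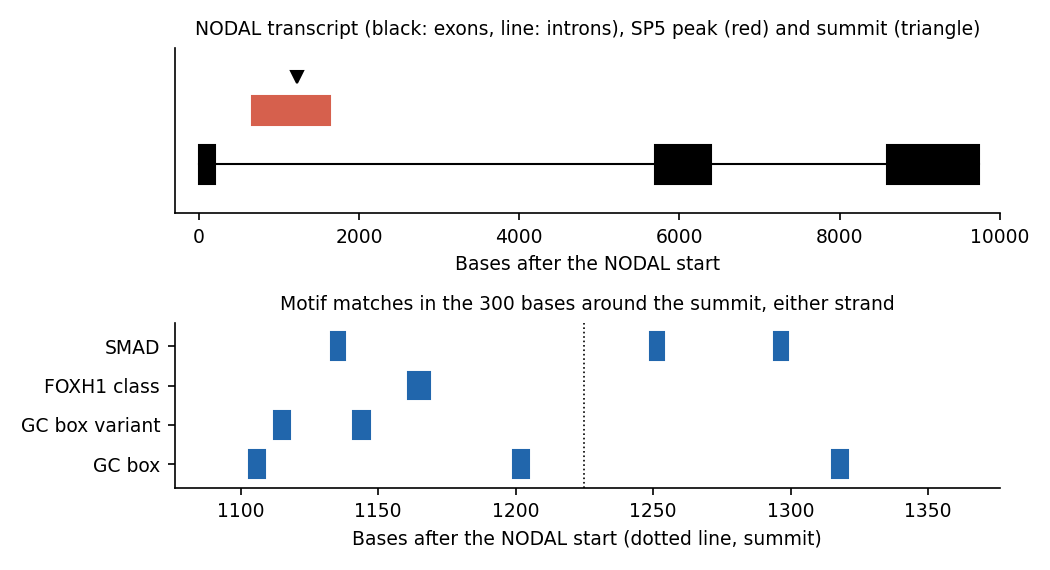
The upper panel draws the 3 exons of NODAL and the SP5 peak by distance from the start in bases, with the summit 1225 bases after the start; the lower panel draws motif matches in the 300 bases around the summit, on either strand. The peak lies within intron 1, and GC box and SMAD box matches (3 of each) stand on both sides of the summit.

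Promoters are shown for the 3 induced members that have an entry in the RefSeq promoter table (GRCh38.p14), as the 250 bases before each start with the same letters in capitals. NODAL is at chr10:70441682-70441931, CER1 at chr9:14722734-14722983 and GDF3 at chr12:7695776-7696025, all on the minus strand.
NODAL promoter: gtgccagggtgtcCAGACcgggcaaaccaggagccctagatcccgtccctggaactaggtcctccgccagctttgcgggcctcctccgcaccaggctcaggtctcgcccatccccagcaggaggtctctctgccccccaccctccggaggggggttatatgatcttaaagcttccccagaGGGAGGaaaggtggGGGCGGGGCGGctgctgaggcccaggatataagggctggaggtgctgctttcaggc
GDF3 promoter: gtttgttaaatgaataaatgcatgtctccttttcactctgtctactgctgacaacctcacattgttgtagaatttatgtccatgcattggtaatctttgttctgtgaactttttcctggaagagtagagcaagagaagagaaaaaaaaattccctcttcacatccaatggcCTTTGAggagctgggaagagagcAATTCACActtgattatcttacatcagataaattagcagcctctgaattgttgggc
CER1 promoter: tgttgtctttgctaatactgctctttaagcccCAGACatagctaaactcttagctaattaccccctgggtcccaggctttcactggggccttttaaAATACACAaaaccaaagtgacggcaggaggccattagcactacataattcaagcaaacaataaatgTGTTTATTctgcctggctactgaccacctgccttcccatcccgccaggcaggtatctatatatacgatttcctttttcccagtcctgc
The NODAL promoter holds 2 overlapping matches to GGGCGG, 1 to GGGAGG and 1 to CAGAC. The GDF3 promoter holds 1 match to CTTTGA and 1 to TGTNNATT, and the CER1 promoter holds 2 matches to TGTNNATT and 1 to CAGAC. Among 35116 RefSeq promoter windows of this length, 42.6% hold GGGCGG, 45.6% hold GGGAGG, 38% hold CAGAC, 11.2% hold CTTTGA and 9.88% hold TGTNNATT. TDGF1, entered in RefSeq as CRIPTO, has 2 start windows, with 1 and 2 matches to GGGCGG and no match to the other letters. LEFTY1, LEFTY2 and FOXH1 have no entry in the table.

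The other members lay far from any summit. For LEFTY1 and LEFTY2, neighbouring genes on chromosome 1, the nearest summit in both lists was the one at MIXL1 (chr1:226410325-226411482, 95 tags), 334.3 kb and 282.2 kb upstream of their starts. The nearest summit of either list was 264.1 kb from GDF3, 351.2 kb from FOXH1, 954.2 kb from TDGF1 and 5265.8 kb from CER1. Of 40 other genes of the pathway, a list of ligands, receptors, SMADs, inhibitors and targets, 6 had a summit within 50 kb in at least 1 list (MIXL1, GSC, SMAD3, SMAD7, DACT2 and LHX1). The share among all protein-coding genes was 5.23%. MIXL1, a mesendoderm homeobox gene, had a summit 198 bases from its start in both lists, with a false discovery rate of 0%, whereas GSC had one 337 bases away in the list with the buffer-treated control only, at 65.42%. Summits within 50 kb of SMAD3, SMAD7, DACT2 and LHX1 had false discovery rates of 9.89% to 49.57%. Of these genes, MIXL1 alone would thus pass a rate of at most 5%.

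Levels were then compared over time in the first WT series, where RPKM is per length and can be compared between genes. Both ligands and all 3 secreted inhibitors were raised with Wnt3a, while the coreceptor and FOXH1 stayed within 2-fold of their 0 h level. At 24 h, 5 of 7 members were at least 2-fold higher than at 0 h (RPKM plus 1), against 2.62% of 10975 genes. The count was 4 of 7 at 12 h (background 1.22%) and 4 of 7 at 48 h (background 4.86%). No member was at least 2-fold lower at any time, against 0.72%, 1.35% and 2.95% of genes at 12, 24 and 48 h. Listing needs 4 RPKM in at least 1 library, and CER1 (1.8) and LEFTY2 (3.4) were below that at 0 h. These genes are thus listed only because they rose. At 12, 24 and 48 h the 7 members had a median log2 change of 1.46, 3.13 and 1.92, beside a median over all genes of -0.01 at 12 and 24 h. In bulk RNA, more cells that express a gene and more RNA per cell cannot be told apart.

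NODAL had RPKM values of 4.3, 77.1, 159.2 and 56.9 at 0, 12, 24 and 48 h. Its level was thus highest at 24 h and at 48 h was 0.357 of the 24 h level, still 13.2-fold that at 0 h. Its log2 change over 0 h, with 1 added to each RPKM, came to 3.88, 4.92 and 3.45 at 12, 24 and 48 h. NODAL went from above 10.1% of listed genes at 0 h to above 96.6% at 24 h.

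GDF3, a ligand related to NODAL that can also use the coreceptor, had RPKM values of 11.6, 51.8, 138.5 and 81.9. It followed the same course, 11.9-fold higher at 24 h than at 0 h and at 0.591 of that level by 48 h. Between 12 h and 24 h NODAL increased 2.06-fold and GDF3 2.67-fold.

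LEFTY1 had RPKM values of 8.3, 15.1, 34.5 and 34.3, so the ratio of its 48 h to its 24 h level was 0.994. LEFTY2 had RPKM values of 3.4, 11.8, 37.5 and 6.8. The LEFTY proteins are diverged TGF-β family members that block NODAL and its coreceptor, and their genes reached nearly the same level at 24 h but separated afterwards. LEFTY1 RPKM divided by LEFTY2 RPKM gave 2.44, 1.28, 0.92 and 5.04 over the 4 times. The 2 transcripts share stretches: of the 50-base words in the canonical LEFTY1 transcript, 31.3% also occur in LEFTY2 transcripts, and of its 100-base words 17.4% do, so the split of reads between them is uncertain.

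CER1, which encodes Cerberus, a secreted inhibitor of NODAL and BMP ligands, had RPKM values of 1.8, 6.7, 466.7 and 634. Most of its increase came between 12 h and 24 h, a 69.7-fold step, and its level was highest at 48 h. At 48 h CER1 was above 99.6% of listed genes.

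TDGF1 had RPKM values of 228.5, 205.7, 215.7 and 208, and its log2 change over 0 h lay between -0.15 and -0.08. FOXH1, which recruits SMAD complexes to DNA, had RPKM values of 44.6, 49.2, 61.7 and 64.8, and its log2 change was at most 0.53. Both were thus well expressed before Wnt3a was added, TDGF1 above 98.1% and FOXH1 above 83% of listed genes. TDGF1P3, a retrogene of TDGF1, was listed at 67.7 to 74.4 RPKM, and 38.1% of the 50-base words of the canonical TDGF1 transcript also occur in it, so reads may be split between them. FOXH1 overlaps KIFC2 and TDGF1 overlaps LRRC2 on the other strand, and the strand setting used for counting is not given in the sources used here.

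The order of the members by RPKM changed with time. At 0 h it was TDGF1, FOXH1, GDF3, LEFTY1, NODAL, LEFTY2 and CER1, and at 24 h it was CER1, TDGF1, NODAL, GDF3, FOXH1, LEFTY2 and LEFTY1. With 1 library at each time, neighbours in this order cannot be shown to differ, and the closest were LEFTY2 and LEFTY1 at 24 h, at 37.5 and 34.5. The summed RPKM of NODAL and GDF3 was 15.9, 128.9, 297.7 and 138.8 over the 4 times, and that of LEFTY1, LEFTY2 and CER1 was 13.5, 33.6, 538.7 and 675.1. Ligand RNA exceeded inhibitor RNA by a ratio of 3.84 at 12 h, and by 48 h the ratio was 0.206. With CER1 left out of the inhibitors, the ratio of summed ligand to summed LEFTY RPKM was 1.36, 4.79, 4.13 and 3.38 over the 4 times. NODAL alone divided by the summed LEFTY RPKM gave 0.368, 2.87, 2.21 and 1.38.

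**Figure D2:**
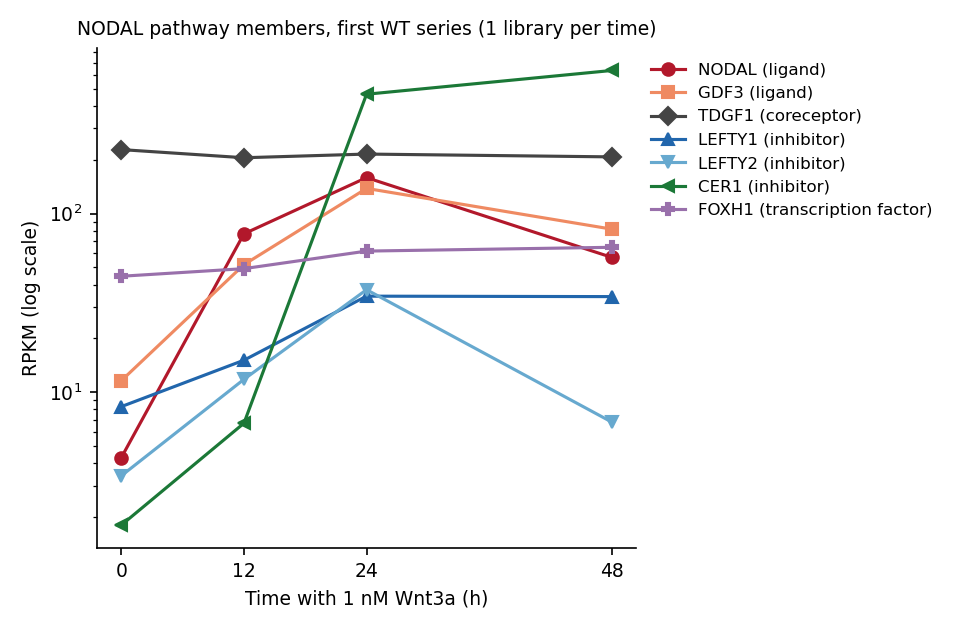
RPKM on a log axis against hours with 1 nM Wnt3a for the 7 members, 1 library at each time in the first WT series, with each line a gene and its role in the legend. TDGF1 stays at 205.7 to 228.5 RPKM and FOXH1 at 44.6 to 64.8, NODAL, GDF3 and LEFTY2 are highest at 24 h, and CER1 ends at 634.

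In the first WT series 4 of 7 members (NODAL, GDF3, LEFTY1 and LEFTY2) had their highest RPKM at 24 h, against 19.6% of all genes. LEFTY1 is counted on 34.5 against 34.3 RPKM at 48 h, with 1 library each, which is close to a tie. LEFTY2, at 3.4 RPKM at 0 h, was listed only through later times. Markers of the cells were checked in the same libraries. All 6 embryonic stem cell markers were listed, with a summed RPKM of 2157.2 at 0 h and 1494.3 at 48 h. LIN28A made up 1014.1 of the sum at 0 h, whereas NANOG was at 3.3 at 0 h, 5.9 at 24 h and 3.4 at 48 h. The markers other than NANOG were lower at 48 h than at 0 h. Of the neural, trophoblast and amnion markers, 0 of 6 were listed. The 3 fibroblast markers were listed, with THY1, which stem cells also express, making up most of their summed 122.1 to 213.7 RPKM and COL1A1 at 2.6 to 4.2. The summed RPKM of the mesendoderm markers T, EOMES, MIXL1 and SOX17 went from 0.2 at 0 h to 402.7 at 24 h and 315.9 at 48 h, with 3 of the 4 listed at 0 at the start. From 24 to 48 h these markers moved both ways. MIXL1 went from 271.1 to 76.4 and T from 21.7 to 10.1, while EOMES went from 109.3 to 139.8 and SOX17 from 0.6 to 89.6. Their part in the rise of the members was not tested.

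The other genes of the pathway were listed in 29 of 40 cases. Of these, 10 were at least 2-fold higher at some time and 0 were at least 2-fold lower, and their median log2 change was 0.01, 0.03 and 0.13 at 12, 24 and 48 h. The numbers raised were 5, 7 and 9 of 29 at the 3 times, to be read against the background given above. The 5 target transcription factors among them, given below, are listed only because they rose. Of 8 receptors and coreceptors 4 were listed. Of these 0 of 4 passed 2-fold, as did 0 of 5 listed transducers, with log2 changes of -0.22 to 0.68 and -0.64 to 0.23. At most 4.86% of all genes were raised and 2.95% lowered at any time, so 0 of so few genes is near that share. Among these are ACVR2B, a type II activin receptor, at 56.1 to 60.8 RPKM, and SMAD2, at 22.7 to 26.2 RPKM. The largest changes were in TGFBR1, from 27 RPKM at 0 h to 44 at 48 h, in SMAD3, from 4.3 at 0 h to 2.5 at 48 h, and in DRAP1, from 34.1 at 0 h to 21.5 at 24 h.

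Of 4 listed genes for ligands and their processing, 2 were raised. TGFB1, which encodes TGF-β1, had RPKM values of 2.7, 3.6, 5.8 and 11.7 and a log2 change of 1.78 at 48 h, and FURIN, a protease that cleaves TGF-β family precursors, had 13.2, 11.6, 14.3 and 30.2 and a log2 change of 1.14. Of 11 listed inhibitors, 3 were raised. FST, which encodes the activin-binding protein follistatin, was raised from 12 h on, with 7.5, 35.2, 43.8 and 47.1 RPKM. PMEPA1, which limits SMAD signaling, was raised at 24 h only, with 9.8, 14, 24.9 and 16.1 RPKM, and BAMBI, a pseudoreceptor, at 48 h only, with 19, 17.3, 21.6 and 59.6 RPKM.

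All 5 target transcription factors reported here were raised. Each was at 0.9 RPKM or less at 0 h, and a gene is listed only if it reached 4 RPKM in at least 1 library. None of the 5 could thus have been listed without a rise, so their count is fixed by the listing. EOMES, a T-box gene of mesendoderm, was listed at 0, 34.8, 109.3 and 139.8 RPKM, and MIXL1 at 0, 68.6, 271.1 and 76.4. GSC, an organizer homeobox gene, had 0.5, 7.3, 57.8 and 27.2 RPKM. The endoderm and organizer genes FOXA2 (0.9, 3, 29.1 and 40.7 RPKM) and LHX1 (0.6, 0.3, 5.7 and 93.7 RPKM) were highest at 48 h. MIXL1 and GSC were thus highest at 24 h, as were NODAL and GDF3, and EOMES, FOXA2 and LHX1 at 48 h, as was CER1.

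**Figure D3:**
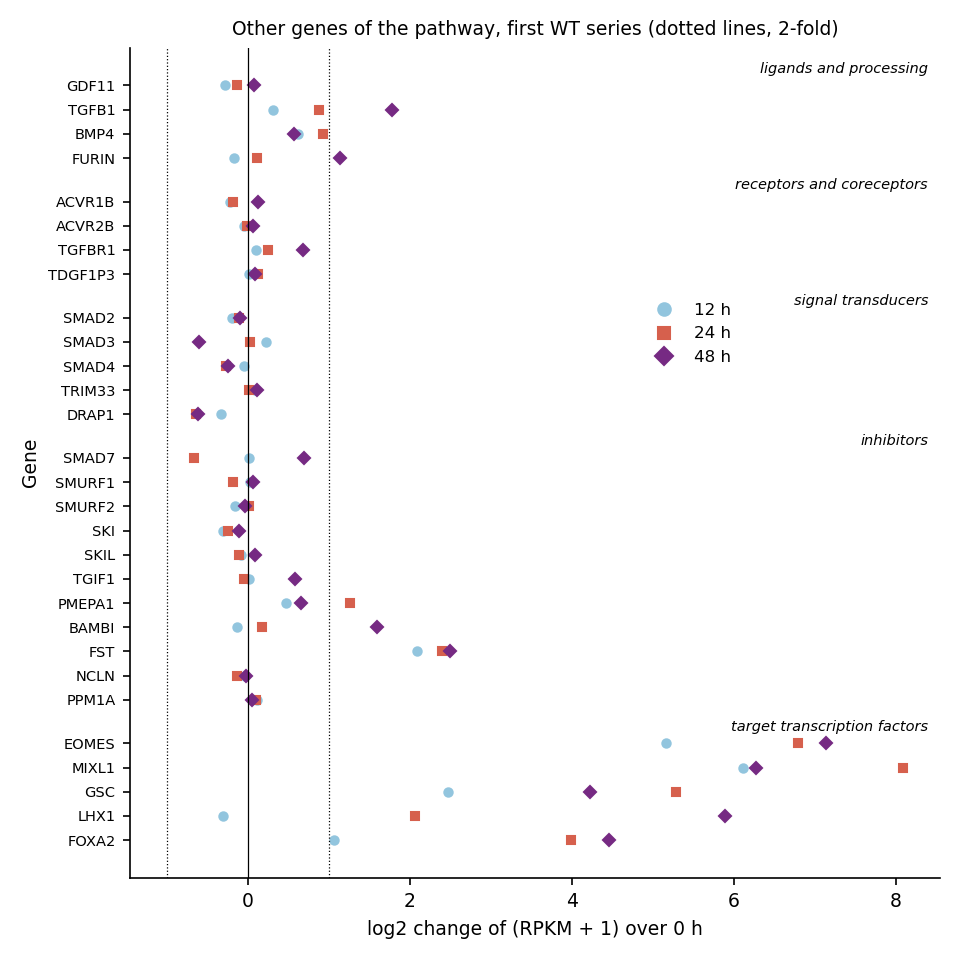
Log2 change of RPKM plus 1 over 0 h at 12, 24 and 48 h for the 29 listed pathway genes of the first WT series, grouped by role, with dotted lines at 2-fold. All 5 target transcription factors, which are listed only because they rose, lie beyond 2-fold at some time. The receptors and transducers lie between -0.64 and 0.68.

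The SP5 mutant clones were compared with WT Rep. 2 to ask how the members respond without the zinc fingers of SP5. The values are RPKM relative to the highest RPKM of WT Rep. 2, to 2 decimals, and log2 ratios were computed with 0.05 added. At 24 h all 5 listed members exceeded WT Rep. 2 at least 2-fold in both clones, against 10.5% of 497 genes. At 0 h the count was 0 of 5 (background 2.21%), at 12 h it was 1 of 5, NODAL (background 3.42%), and at 48 h it was 0 of 5 (background 6.24%). Without dZF1 the 12 h count was 2 of 5, for which the share of all genes was not computed. Over all 497 genes the median log2 ratio to WT Rep. 2 at 24 h was 0.21 in dZF1 and 0.27 in dZF2, and the count was again 5 with each library centred on its median. With 0.2 added in place of 0.05 the count was 4, and CER1 was the member that lost its call.

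SP5 and the listed members rose later in WT Rep. 2 than in the first WT series, which touches each of these ratios. SP5 RNA itself was at 0.02, 0.02, 0.09 and 1 at 0, 12, 24 and 48 h in WT Rep. 2, and at 0, 0.367, 0.667 and 1 of its own maximum in the first WT series. The clones had 0.01, 0.23, 0.9 and 2.54 (dZF1) and 0, 0.62, 0.75 and 2.61 (dZF2), and since reads outside the deleted stretch are still counted, these values do not check the deletion. The median absolute log2 change over the 497 genes at 24 h was 0.27 in WT Rep. 2, beside 0.49 in dZF1, 0.65 in dZF2 and 0.99 in the first WT series. These genes were selected for their change in the first WT series, so the larger median there is in part fixed by that selection. With 1 WT library at each time in the mutant table, a later response of WT Rep. 2 and an effect of the mutation cannot be told apart at 24 h.

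NODAL was at 0.04, 0.09, 0.32 and 1 in WT Rep. 2, at 0.05, 0.29, 1.46 and 1.43 in dZF1 and at 0.05, 0.74, 3.06 and 1.64 in dZF2. Both clones were above WT Rep. 2 at 12, 24 and 48 h, and at 24 h they exceeded its 48 h value too. The 0 h values of 0.05 and 0.04 differ only in the last decimal given, so no difference is read from them. The mean log2 ratios at 12, 24 and 48 h were 1.89 ± 0.86, 2.55 ± 0.74 and 0.59 ± 0.14 (SD, n = 2 clones). The difference between WT and clones was thus larger than the spread between clones at all 3 times, although a single WT series stands on the other side.

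GDF3 was at 0.15, 0.15, 0.46 and 1 in WT Rep. 2, at 0.1, 0.26, 1.49 and 0.93 in dZF1 and at 0.12, 0.27, 2.07 and 0.93 in dZF2. The clones were above WT Rep. 2 at 12 and 24 h and slightly below it at 0 and 48 h. The mean log2 ratio was 1.82 ± 0.33 at 24 h and -0.1 at 48 h, where both clones had the same value.

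LEFTY2 was at 0.11, 0.13, 0.36 and 1 in WT Rep. 2, at 0.06, 0.16, 0.94 and 0.61 in dZF1 and at 0.08, 0.26, 1 and 0.56 in dZF2. Like GDF3 it was higher in the clones at 24 h and lower at 0 and 48 h. The mean log2 ratios at 0, 24 and 48 h were -0.42 ± 0.17, 1.31 ± 0.06 and -0.73 ± 0.08 (SD, n = 2 clones). From its own 0 h, LEFTY2 changed at 48 h by a log2 of 2.58 (dZF1), 2.23 (dZF2), 2.71 (WT Rep. 2) and 0.72 (first WT series). LEFTY1 was at 0.11, 0.08, 0.35 and 1 in WT Rep. 2, at 0.1, 0.15, 1.01 and 1.25 in dZF1 and at 0.18, 0.24, 1.15 and 1.09 in dZF2. Its mean log2 ratio was 1.5 ± 0.13 at 24 h and 0.21 ± 0.13 at 48 h, so at 48 h LEFTY1 was not lower in the clones while LEFTY2 was.

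CER1 was listed at 0, 0, 0.02 and 1 in WT Rep. 2, at 0, 0, 0.17 and 1.44 in dZF1 and at 0, 0, 0.38 and 1.33 in dZF2. It was listed at 0 in all 3 series at 0 and 12 h, so no ratio is given for those times. At 24 h both clones were above WT Rep. 2, by 8.5-fold and 19-fold, but the WT value of 0.02 is rounded to 2 decimals and the mean log2 ratio of 2.14 ± 0.68 (SD, n = 2 clones) depends on the amount added. At 48 h it was 0.45 ± 0.08.

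**Figure D4:**
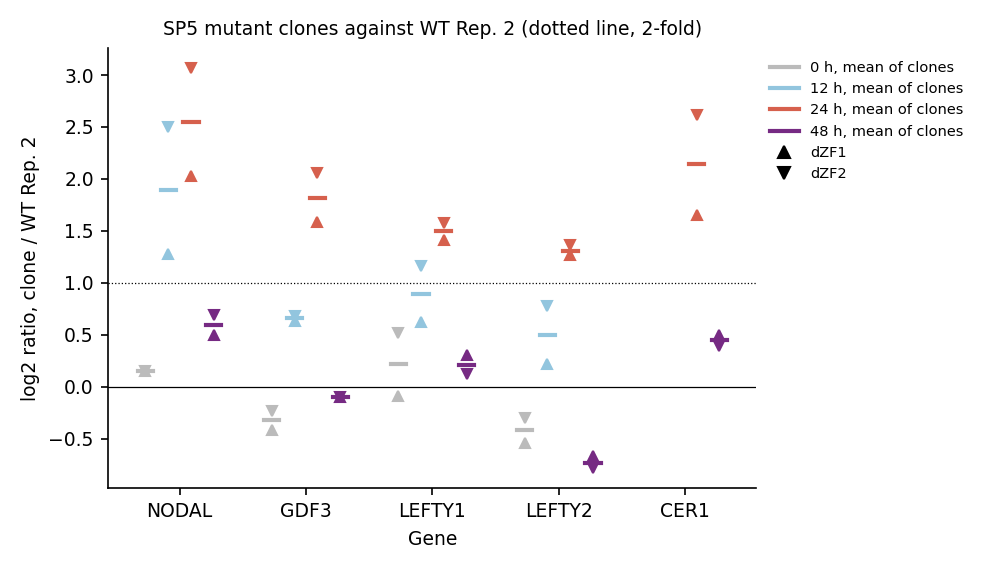
Log2 ratio of each clone to WT Rep. 2, with 0.05 added to both values, for the 5 listed members at 0, 12, 24 and 48 h; triangles are clones, bars their mean, and CER1 at 0 and 12 h is left out because WT Rep. 2 is listed at 0. At 24 h every point lies above the dotted line of 2-fold, and at 48 h LEFTY2 lies at -0.73 on average.

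The clones were also set beside both WT series, by the change of each series from its own 0 h value, since the tables were scaled separately. At 24 h, 4 of 5 members (NODAL, GDF3, LEFTY1 and LEFTY2) had a higher change in both clones than in both WT series, against 11.5% of 497 genes. The count was 0 of 5 at 12 h (background 8.65%) and 3 of 5 at 48 h (NODAL, GDF3 and CER1, background 15.9%). CER1 was listed at 0 at 0 h in WT Rep. 2 and both clones, so its changes depend on the amount added. Both WT series are at 1, their own maximum, for CER1 at 48 h. Its 48 h call thus restates the ratio of the clones to WT Rep. 2. Without the first WT series the count was 4 of 5 at 12 h, and without WT Rep. 2 it was 5 of 5 at 48 h. Leaving out a series loosens the rule, and the share of the 497 genes was not computed for it, so the shares above do not apply to these counts. The 24 h count depended on the amount added, and NODAL was the member concerned: with 0.01 in place of 0.05 the count was 3, since NODAL then changed by 4.77 in the first WT series and 4.61 in dZF1. Without any amount added, NODAL at 24 h was 37-fold its 0 h value in the first WT series, 8-fold in WT Rep. 2, 29.2-fold in dZF1 and 61.2-fold in dZF2. In WT Rep. 2 and the clones these rest on 0 h values of 0.04 and 0.05, given to 2 decimals only. At 12 h the first WT series exceeded at least 1 clone for every member. CER1 at 24 h changed more in the first WT series, by 3.90, than in dZF1 (2.14) or dZF2 (3.10).

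With 0.05 added to the values scaled to the maximum, which is why the first WT change is smaller here than the 4.92 given above for RPKM plus 1, NODAL changed at 24 h by a log2 of 3.77 (first WT series), 2.04 (WT Rep. 2), 3.92 (dZF1) and 4.96 (dZF2). The means were 2.9 ± 1.22 for the WT series and 4.44 ± 0.74 for the clones (SD, n = 2 each), a difference of 1.53 that is close to the spread between the WT series. For GDF3 the changes were 2.97, 1.35, 3.36 and 3.64 in the same order, and for LEFTY2 they were 2.9, 1.36, 3.17 and 3.01. LEFTY1 changed by 1.85, 1.32, 2.82 and 2.38. The lower clone exceeded the higher WT series by 0.15 for NODAL, 0.11 for LEFTY2, 0.39 for GDF3 and 0.53 for LEFTY1, a margin that for NODAL was -0.16 with 0.01 added. LEFTY1 was the member whose WT series lay closest together, at 1.59 ± 0.38 against 2.6 ± 0.31 in the clones.

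The course after 24 h also differed between the WT series. NODAL at 48 h divided by its 24 h value gave 0.357 (first WT series), 3.13 (WT Rep. 2), 0.979 (dZF1) and 0.536 (dZF2). LEFTY2 had ratios of 0.181, 2.78, 0.649 and 0.56 in the same order, and GDF3 had 0.591, 2.17, 0.624 and 0.449. These 3 of 5 members were lower at 48 h than at 24 h in the first WT series and both clones but higher in WT Rep. 2, against 6.44% of 497 genes, a rule chosen after the values were seen. CER1 increased between 24 and 48 h in all 4 series, by ratios of 1.36, 50, 8.47 and 3.5. In WT Rep. 2 all 5 members were highest at 48 h, as were 63% of the 497 genes.

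**Figure D5:**
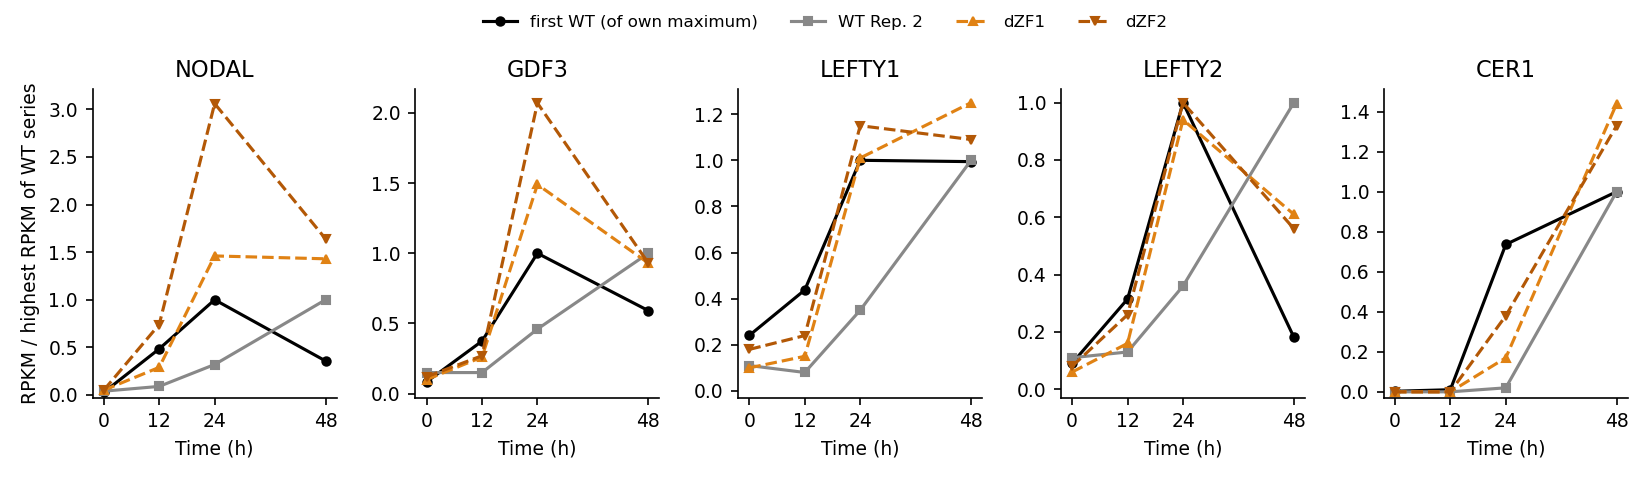
Value of 5 members at 0, 12, 24 and 48 h with Wnt3a in the 4 series, as a fraction of the highest RPKM of the first WT series for that series (black) and of WT Rep. 2 for the other 3. WT Rep. 2 (grey) rises to 48 h for every gene, while NODAL, GDF3 and LEFTY2 are lower at 48 h than at 24 h in the first WT series and both clones.

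Of the other pathway genes, 9 are in the mutant table. At 24 h 4 of these 9 (EOMES, MIXL1, GSC and FOXA2) were at least 2-fold higher than WT Rep. 2 in both clones, against the 10.5% of all 497 genes. The count was 0 of 9 at 0 h (2.21%), 2 of 9 at 12 h (3.42%) and 1 of 9 at 48 h (6.24%). At 24 h these 4 genes had mean log2 ratios of 3.8 ± 0.69, 3.61 ± 1.5, 3.01 ± 0.87 and 2.7 ± 0.16 (SD, n = 2 clones). In WT Rep. 2 they were then at only 0.05, 0.08, 0.1 and 0.03, to 2 decimals, so the sizes of these ratios depend on rounding and on the amount added. With 0.05 added, the inhibitor genes PMEPA1 and FST passed 2-fold in dZF2 only, with means of 1.2 ± 0.31 and 1.01 ± 0.26. PMEPA1 in dZF1 was at the limit, with a log2 ratio of 0.98 and 2.04-fold without any amount added. TGFB1 and BAMBI had mean ratios of -0.05 ± 0.14 and -0.02 ± 0.2.

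The genes whose values were most like each member were named by Pearson's r of log2 values over the 16 libraries, which share the Wnt3a time course and their WT series. For NODAL these were SLC39A8 (r = 0.955), MIXL1 (0.95), GDF3 (0.946), GPR37 (0.946) and WNT3 (0.934). GDF3 was most like LEFTY2 (0.949) and NODAL (0.946), and then C3orf64 (0.941). LEFTY2 was most like GDF3, NODAL (0.922) and SLC47A1 (0.92). LEFTY1 was most like GSC (0.966), C15orf2 (0.953) and ADAMTS1 (0.951), and CER1 was most like SERPINE2 (0.984), CDA (0.978) and FOXA2 (0.97). Between the members, r was lowest for LEFTY2 with CER1, at 0.722, and NODAL with CER1, at 0.724.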

How the data were processed

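RNA-Seq reads were mapped to hg19 with TopHat and quantified with Cuffdiff by the authors, who deposited RPKM to 1 decimal for genes reaching 4 RPKM in at least 1 library of the first WT series. In the mutant table the authors divided each RPKM by the gene's highest RPKM in the second WT series, which makes a fraction for that series and a ratio for the clones. For ChIP-Seq the authors deposited MACS 1.4.2 peaks with tag counts, a score, the fold enrichment and the percent false discovery rate; the submitters' notes also name Bowtie 0.12.7 and SAMtools 0.1.12a. Libraries were rRNA-depleted and directional. All sample columns were matched to labels, with 0 left unused; 2 other tables repeat RPKM values as fractions of the maximum and were not used.

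Log2 changes used RPKM plus 1 or value plus 0.05. Where the labels do not say that libraries came from separate cultures, the spread may be technical. Starts are canonical transcripts of GENCODE (release 44 lifted to GRCh37), 1 per protein-coding gene, and summits are start plus summit offset minus 1. Motifs were searched on both strands with overlaps allowed. Named genes are the 7 members, pathway genes changed at least 2-fold in the first WT series, and the 5 (NODAL) or 3 (other members) genes most like each member; other pathway genes, SP5 and the marker genes were named as values for context. One gene of the pathway list is not reported here and was left out of its counts. The members, lists and rules were chosen with earlier results of these data known. Alternatives were other pseudocounts, filters, distances, peak lists, motif windows and each clone or WT series left out. The calculations were tested on simulated data and run in Python 3.11.15 with numpy 2.4.6, pandas 2.3.3, pysam 0.24.0 and matplotlib 3.10.9.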

Additional observations from a re-analysis of the deposited data

Results flagged for a closer look

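LEFTY2 and GDF3 moved in opposite directions against WT Rep. 2 at 2 times. Both clones were higher than WT Rep. 2 at 24 h and both were lower at 48 h, and the mean log2 ratio differed between these times by 2.04 for LEFTY2 and by 1.92 for GDF3. The difference was not tested, since each time has 1 WT library. For GDF3 the 48 h ratio was only -0.1. At 0 h the clones were already lower, with mean log2 ratios of -0.42 for LEFTY2 and -0.32 for GDF3. Both genes were higher at 48 h than at 24 h in WT Rep. 2 and lower at 48 h in the first WT series and both clones.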

How the results depend on the processing

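Of 70 counts recomputed under alternatives, 57 stayed within 1.5 times the reported one. This tally includes counts of 0 that stayed at 0, and counts this small can lose a member within that limit, so it does not measure robustness. In the first WT series the counts of members raised did so under every pseudocount, filter and fold tried. At 24 h, 4 members rather than 5 were 2-fold higher than WT Rep. 2 with a pseudocount of 0.2, where CER1 lost its call, and 3 rather than 4 were above both WT series with 0.01, where NODAL lost its call. With a clone or WT series left out these counts were 5 and 4 to 5. At 12 h the count of members 2-fold higher than WT Rep. 2 was 0 with a pseudocount of 0.2 and ranged from 1 to 2 with a clone left out. The 12 h count above both WT series ranged from 0 to 4 with a library left out, 4 without the first WT series and 1 without dZF1, and the 48 h count ranged from 3 to 5, 5 without WT Rep. 2. Shares over all genes were not computed under the alternatives. Members with a summit within 50 kb numbered 0 at a false discovery rate of at most 5% and 0 with the Wnt3a-control list alone. At the NODAL summit, within 50 bases, GGGCGG had 1 match, CAGAC 1, GGGAGG 0 and TGTNNATT 0, and within 200 bases GGGAGG had 4 and TGTNNATT 2. The cause of these differences was not tested. CER1's mean log2 ratio at 24 h was 1.07 with a pseudocount of 0.2 and 3.14 with 0.01. No change of sign occurred among the recomputed log2 changes in the first WT series and mean log2 ratios to WT Rep. 2. The 24 h margin of NODAL, lower clone over higher WT series, did change sign, from 0.15 to -0.16 with 0.01 added. Depth is unknown, so counting error could not be given.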
